A study of Mus musculus with 19 samples.

Results

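The 7 genes described here are grouped by a link to mature neutrophils, the short-lived phagocytes of blood and marrow: S100a8, S100a9, Retnlg, Il1r2, Stfa1, Stfa2 and Stfa3. That link was not tested here, and Retnlg did not follow S100a8 and S100a9. The 7 genes were chosen by name from the 36682 genes of the deposited table of counts and FPKM (a level per length of gene and depth of library), and all 7 were found. RNA was sequenced in bulk from lumbar dorsal root ganglia L3 to L5, the clusters of sensory nerve cell bodies that serve the hind limb. The ganglia of 1 side, in DMM mice that of the operated knee, were pooled. The 19 libraries are from male mice and are each taken here as 1 mouse, as the labels number them. All mice were homozygous for the MaFIA transgene (macrophage Fas-induced apoptosis), a suicide construct that the Csf1r promoter drives in macrophages and other myeloid cells and that AP20187, a drug that joins 2 protein copies, switches on.

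There were 4 groups. In the DMM groups, the medial meniscus of the knee had been destabilized by surgery, a model of osteoarthritis. These mice received 1 injection a day into the peritoneum for 5 days, beginning 8 weeks after surgery: AP20187 in 5 mice (numbered 58 to 62) or vehicle in 5 mice (32, 33, 34, 63 and 64). The naive groups were age-matched mice without surgery that received the same course of AP20187 (4 mice, numbered 1, 3, 4 and 5) or vehicle (5 mice, numbered 1 to 5). The labels do not say that a number shared by a naive vehicle and a naive AP20187 mouse marks a common litter, batch or day. The transgene was present in every group, so no group shows AP20187 in mice without it.

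S100a8 and S100a9 encode the calgranulins, small calcium-binding proteins that pair as calprotectin, fill the neutrophil cytosol, bind zinc and manganese, and act outside the cell on receptors such as Toll-like receptor 4. Retnlg encodes resistin-like gamma, a secreted protein whose transcript is abundant in mature blood neutrophils, and Il1r2 encodes the decoy receptor that binds interleukin-1 without signalling. The stefins A (Stfa1, Stfa2 and Stfa3) are cytosolic inhibitors of cysteine cathepsins and belong to a recently expanded mouse gene family whose copies lie side by side. Of the 7, therefore, the calgranulins and the stefins are cytosolic proteins, while the products of Retnlg and Il1r2 are secreted or sit in the membrane.

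Libraries held 60984830 to 74691396 counts, and no 2 libraries were identical. Markers of sensory neurons were present in all 19: the summed level of 7 of them (Prph, Avil, Isl1, Tubb3, Snap25, Trpv1 and Nefh) ran from 889 to 9311 CPM (counts scaled to a common library size, after TMM normalization). Markers of marrow and blood cells were present too. The 8 erythroid genes summed to 1303 to 26737 CPM, and the highest of these values belonged to DMM vehicle mouse 64, whose neuronal sum of 2835 CPM was the lowest of the 10 vehicle mice. That mouse stands apart in many values below, so results in DMM mice that it moved are also given without it. Of 8 macrophage genes, none fell with AP20187, 1 rose in DMM mice (6 without mouse 64) and 3 rose in naive mice. The share of all tested genes that rose was 11.3% in DMM mice (15.5% without mouse 64) and 8.61% in naive mice, and 12.4% (18.5% without mouse 64) and 2.57% fell.

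S100a8 (ENSMUSG00000056054) lies at chr3:90576285-90577342 on the plus strand of GRCm39 and S100a9 (ENSMUSG00000056071) at chr3:90599939-90603028 on the minus strand. In DMM mice given AP20187, S100a8 stood at 1219, 1045, 967, 894 and 1533 CPM in mice 58 to 62. In DMM mice given vehicle it stood at 21.5, 27.6, 90.1, 132 and 425 CPM in mice 32, 33, 34, 63 and 64. All 5 treated mice were above all 5 vehicle mice, and the vehicle mice themselves differed widely. In naive mice, S100a8 was at 2108, 2065, 912 and 326 CPM with AP20187 and at 36.9, 32.6, 72.7, 93.2 and 48.0 CPM with vehicle. These groups did not overlap either, and naive AP20187 mouse 5 was the lowest of the treated mice. The rise was 8.13-fold in DMM mice (log2 fold change 3.02, SE 0.68, adjusted p = 0.00511) and 23.9-fold in naive mice (4.58, SE 0.74, adjusted p = 0.00123), by edgeR's quasi-likelihood test with Benjamini-Hochberg adjustment over 22778 genes. Without DMM vehicle mouse 64 the DMM log2 value was 4.06.

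S100a9, the partner of S100a8, was the most abundant of the 7 genes per length and per count. It was at 3730, 3356, 3016, 2516 and 4435 CPM in the DMM AP20187 mice, against 66.3, 102, 321, 420 and 1299 CPM in the DMM vehicle mice. In the naive mice it was at 6121, 5594, 2513 and 1040 CPM with AP20187, against 120, 120, 237, 303 and 159 CPM with vehicle. Again no treated mouse overlapped a vehicle mouse of the same surgical state. S100a9 rose by a log2 fold change of 2.95 in DMM mice (SE 0.65, adjusted p = 0.00466; 3.91 without mouse 64) and of 4.34 in naive mice (SE 0.71, adjusted p = 0.00126). Among the genes of the table ranked by FPKM, S100a9 held places 6 to 15 in the DMM AP20187 libraries, 6 to 21 in the naive AP20187 libraries, places 20 to 267 in the DMM vehicle libraries, and places 44 to 123 in the naive vehicle libraries. The best DMM vehicle place lay within the naive AP20187 range. In 1 treated library it took 0.573% of all counts.

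**Figure D1:**
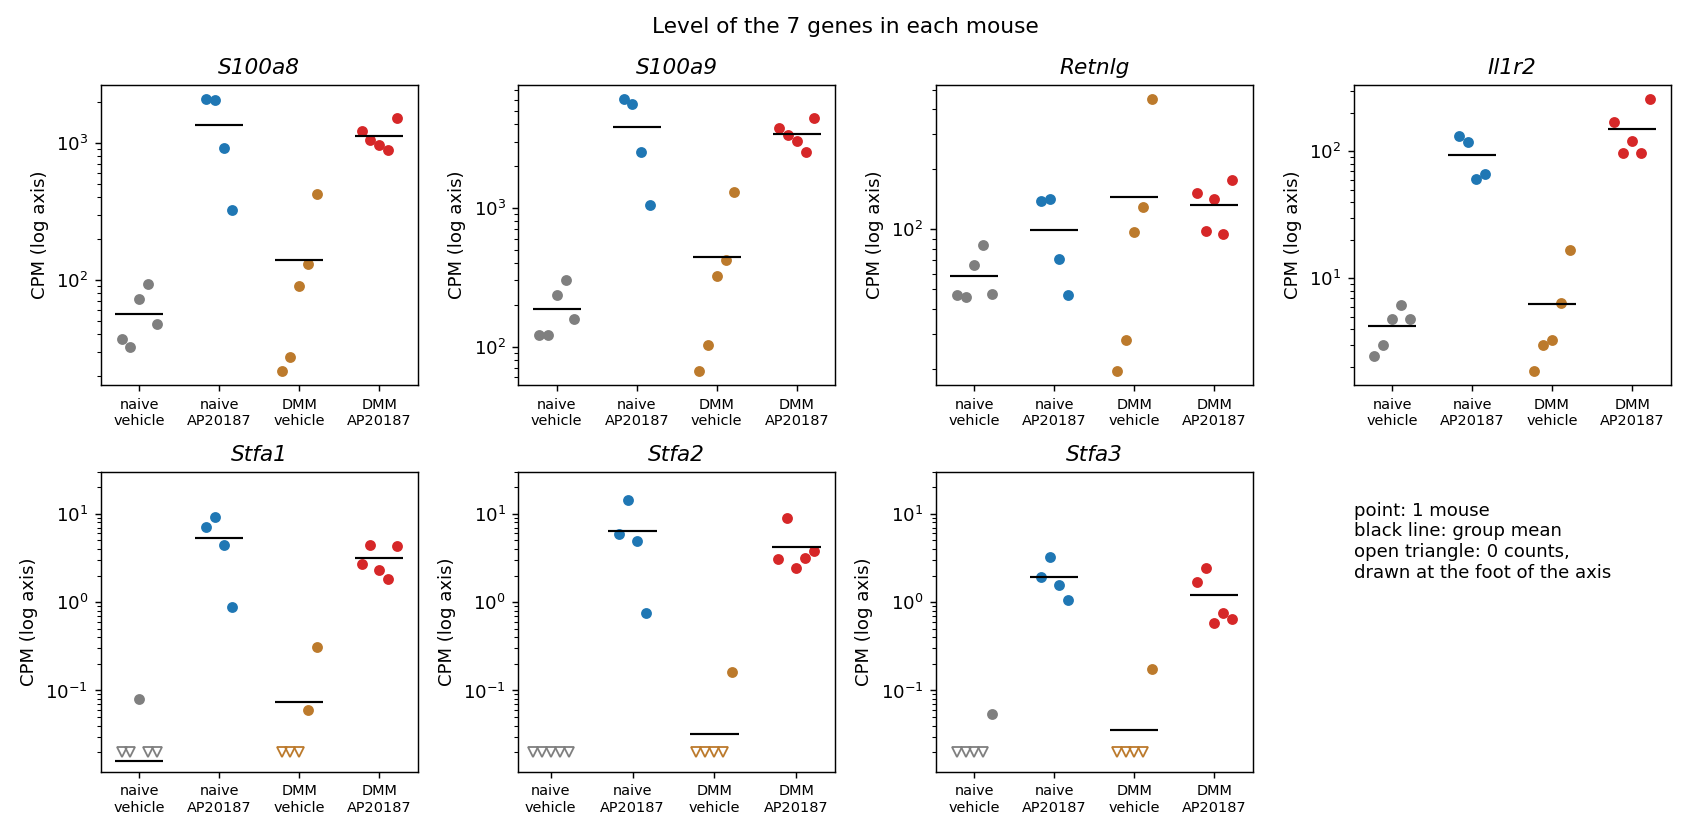
Level of each of the 7 genes in every mouse, in CPM on a log axis, by group. Points are mice, black lines are group means, and open triangles mark libraries with 0 counts. S100a8, S100a9, Il1r2 and the 3 stefins are higher in every AP20187 mouse than in every vehicle mouse of the same surgical state, while the Retnlg groups overlap.

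Retnlg (ENSMUSG00000022651, chr16:48692984-48694859, plus strand) did not follow the calgranulins. It was at 153, 98.7, 142, 95.3 and 178 CPM in the DMM AP20187 mice and at 19.4, 28.0, 97.4, 130 and 454 CPM in the DMM vehicle mice. The treated mice all lay within the range of the vehicle mice. In naive mice it was at 138, 142, 71.1 and 47.0 CPM with AP20187 and at 46.8, 45.9, 66.5, 83.8 and 47.7 CPM with vehicle, so that 2 of 4 treated mice were above all vehicle mice. Neither difference passed the test: the log2 value was -0.13 in DMM mice (SE 0.59, adjusted p = 0.903) and 0.78 in naive mice (SE 0.62, adjusted p = 0.408). The DMM value turned with the vehicle mice and with the method. It was 0.96 without mouse 64 (adjusted p = 0.121) and 1.46 against mice 32, 33 and 34 alone (adjusted p = 0.0238), but -1.15 against mice 63 and 64 alone (adjusted p = 0.154). On all mice, limma voom with sample weights gave 1.17 and passed (adjusted p = 0.0375), and log2 FPKM fits gave 0.66 and 0.67 and did not pass.

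Il1r2 (ENSMUSG00000026073, chr1:40113239-40164391, plus strand), the decoy receptor, was at 169, 97.9, 121, 96.3 and 260 CPM in the DMM AP20187 mice and at 1.85, 2.98, 3.28, 6.39 and 16.9 CPM in the DMM vehicle mice. Even the lowest treated mouse was well above mouse 64, the highest vehicle mouse. In naive mice Il1r2 was at 132, 119, 60.4 and 66.4 CPM with AP20187 and at 2.44, 2.97, 4.77, 6.21 and 4.77 CPM with vehicle. The rise was close in size in the 2 surgical states, 23.7-fold in DMM mice (log2 4.57, SE 0.55, adjusted p = 6.29e-05; 5.36 without mouse 64) and 22.3-fold in naive mice (log2 4.48, SE 0.56, adjusted p = 0.000130). The gene overlaps 2 predicted genes in the deposited annotation, Gm16894 on the opposite strand (9 to 64 counts a library) and Gm37347 on the same strand (0 to 113 counts), both far below Il1r2 itself in the treated libraries.

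The 3 stefins lie within the stefin A cluster of chromosome 16 in GRCm39: Stfa1 (ENSMUSG00000071562) at chr16:36097313-36105735 on the plus strand, Stfa2 (ENSMUSG00000022902) at chr16:36224354-36228819 and Stfa3 (ENSMUSG00000054905) at chr16:36270899-36275754, both on the minus strand. Because these genes are copies of each other, the coding sequences that the counts rest on are shown for Stfa2, for its nearest copy Stfa2l1, and for Stfa3. Capitals in Stfa2 and Stfa2l1 mark the bases at which these 2 differ, and capitals in Stfa3 mark the bases at which it differs from Stfa2. The sequences are bases 1 to 300 of the coding sequence, from reference transcripts of GENCODE M21 (GRCm38), read 5′ to 3′.
Stfa2: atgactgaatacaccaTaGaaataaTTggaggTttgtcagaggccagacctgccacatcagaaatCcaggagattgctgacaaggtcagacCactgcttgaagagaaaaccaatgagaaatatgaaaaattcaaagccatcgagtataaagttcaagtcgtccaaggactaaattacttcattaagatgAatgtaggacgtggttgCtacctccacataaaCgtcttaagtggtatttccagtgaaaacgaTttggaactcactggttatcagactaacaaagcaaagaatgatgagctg
Stfa2l1: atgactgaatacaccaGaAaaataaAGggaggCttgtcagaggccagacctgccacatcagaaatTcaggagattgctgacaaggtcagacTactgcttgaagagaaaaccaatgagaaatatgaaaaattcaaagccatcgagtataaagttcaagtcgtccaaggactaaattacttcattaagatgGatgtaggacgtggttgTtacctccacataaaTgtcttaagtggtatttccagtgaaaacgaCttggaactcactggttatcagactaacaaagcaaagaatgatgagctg
Stfa3: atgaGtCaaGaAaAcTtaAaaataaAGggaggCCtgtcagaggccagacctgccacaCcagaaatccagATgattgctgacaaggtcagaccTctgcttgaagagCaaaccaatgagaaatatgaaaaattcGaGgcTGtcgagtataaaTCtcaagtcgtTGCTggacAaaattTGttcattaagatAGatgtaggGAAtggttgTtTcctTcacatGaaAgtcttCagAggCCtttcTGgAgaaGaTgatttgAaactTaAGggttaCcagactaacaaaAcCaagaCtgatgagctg
Stfa2 and Stfa2l1 differed at 11 of 312 coding bases, an identity of 96.5%, whereas Stfa2 and Stfa3 differed at 59 of 312, a few of them past the stretch shown. Stfa1 had its own near copy in Cstdc5, from which it differed at 6 of 294 aligned coding bases, and it shared 229 of 294 aligned bases with Stfa2 and 242 of 294 with Stfa3. In stretches of 50 bases, a length chosen here to stand for a read, none was shared among the transcripts of Stfa1, Stfa2 and Stfa3. Against the whole cluster, 23.9% of the stretches of Stfa1 and 14.7% of those of Stfa2 also occurred in another transcript, and none of those of Stfa3 did. The longest shared run was 100 bases between Stfa1 and Cstdc5, 97 bases between Stfa2 and Stfa2l1, and 28 bases for Stfa3. How the counting treated reads that match several copies is not given in the sources used here, so the counts of Stfa1 and Stfa2 are uncertain to that extent.

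Stefin transcripts were nearly absent from vehicle mice and present in every treated mouse. Stfa1 had 180, 306, 153, 122 and 252 counts in the DMM AP20187 mice and 409, 539, 261 and 55 counts in the naive AP20187 mice. With vehicle it had 0, 0, 0, 4 and 21 counts in DMM mice 32, 33, 34, 63 and 64, and 6 counts in naive mouse 3 with 0 in the other naive vehicle mice. Its mean was 3.13 ± 1.19 CPM (SD, n = 5) and 5.36 ± 3.55 CPM (SD, n = 4) in the treated DMM and naive mice. The log2 fold change was 5.36 in DMM mice (SE 1.03, adjusted p = 0.00203; 7.52 without mouse 64) and 8.13 in naive mice (SE 1.23, adjusted p = 0.000747), where it rests on 6 vehicle counts and was 11.43 without naive vehicle mouse 3, with all other vehicle mice at 0 and the size then set by the prior count.

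Stfa2 had 203, 607, 161, 211 and 221 counts in the DMM AP20187 mice and 338, 844, 292 and 47 counts in the naive AP20187 mice. It had 0 counts in all 5 naive vehicle mice and in 4 of 5 DMM vehicle mice, and 11 counts in mouse 64. DMM AP20187 mouse 59 and naive AP20187 mouse 3 held the most. Against the 3-count floor in each naive vehicle library, the naive AP20187 mean of 6.44 CPM was at least 145-fold higher (adjusted p = 0.000540). In DMM mice the log2 fold change was 6.94 (SE 1.10, adjusted p = 0.00100), and 11.11 without mouse 64, with all remaining vehicle libraries at 0 and the size set by the prior count.

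Stfa3 had 111, 165, 38, 50 and 38 counts in the DMM AP20187 mice and 110, 193, 93 and 66 counts in the naive AP20187 mice. Of the 10 vehicle mice, DMM mouse 64 had 12 counts, naive mouse 5 had 4 counts and the others had 0. Its mean was the lowest of the 7 genes in both treated groups, at 1.21 ± 0.806 CPM (SD, n = 5) in DMM and 1.95 ± 0.939 CPM (SD, n = 4) in naive mice. The log2 fold change was 5.02 in DMM mice (SE 1.10, adjusted p = 0.00455) and 7.19 in naive mice (SE 1.27, adjusted p = 0.00217). It was 9.30 in DMM mice without mouse 64 and 9.996 in naive mice without vehicle mouse 5, in both cases with the other vehicle mice at 0 and the size set by the prior count. A count of 0 allows up to 3 counts, or 0.0400 to 0.0519 CPM in these libraries, and this limit covers counting error only, because the reads carry no identifiers of single molecules. The 3 stefins passed the filter on low counts through the AP20187 libraries alone, so that their being called is a description of genes that had to differ.

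Of the 4 genes with counts in every library, 3 (S100a8, S100a9 and Il1r2) rose with AP20187 and none fell in DMM mice, where 11.3% of all tested genes rose and 12.4% fell. The same 3 rose in naive mice, where 8.61% of all tested genes rose and 2.57% fell. Of the called genes 77.0% were higher there, and 62.9% when libraries were scaled by their total alone. For these 3 genes every treated mouse was above every vehicle mouse of its own surgical state, a separation that 8.71% of tested genes showed upward in DMM mice and 9.39% in naive mice. The 7 genes were chosen with earlier results of these data known, so nothing is read from an excess over these shares. With the 3 stefins, whose call the filter fixed, 6 of 7 passed in each surgical state, and nothing is read from that count. In bulk RNA, more neutrophils in or around the ganglion and more of these transcripts in each neutrophil cannot be told apart. The calls for S100a8, S100a9 and Stfa3 in DMM mice were lost when only mice 63 and 64 stood as vehicle controls (adjusted p = 0.0931, 0.0858 and 0.1102).

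**Figure D2:**
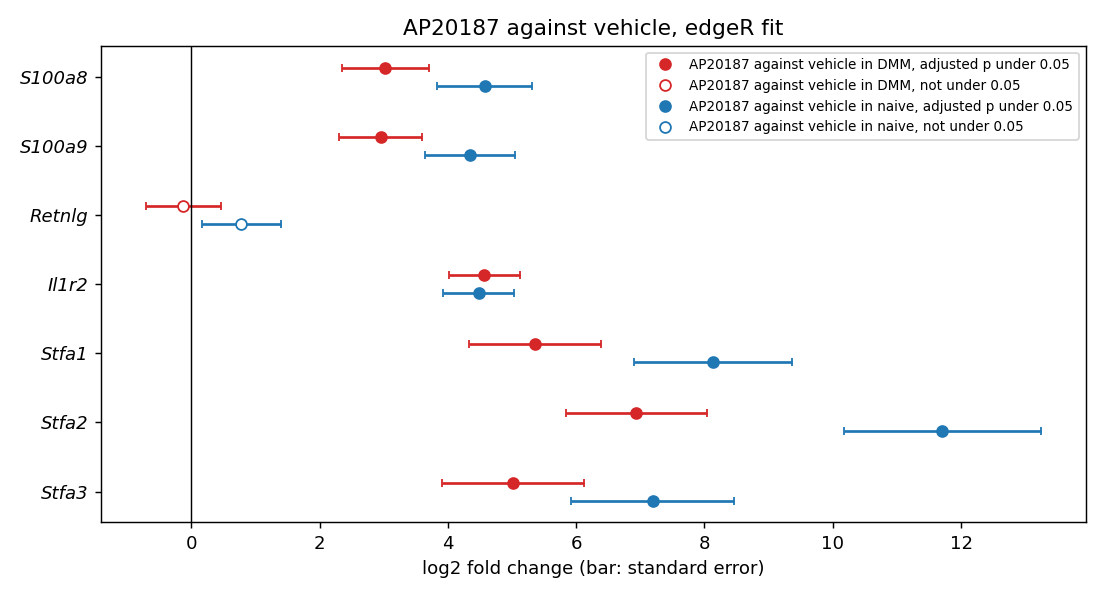
Log2 fold change of the 7 genes, AP20187 against vehicle, in DMM (red) and naive (blue) mice, with bars of 1 standard error from the edgeR fit. Filled points passed an adjusted p of 0.05. Retnlg is the gene with open points, at -0.13 and 0.78, and the other 6 genes lie between 2.95 and 11.71, where the naive Stfa2 value has a vehicle group at 0 and its size depends on the prior count.

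No difference between DMM and naive mice passed the test in these genes. With vehicle, the value in DMM mice relative to naive mice was log2 0.57 for Il1r2, 1.23 for S100a9, 1.29 for S100a8 and 1.33 for Retnlg. Stfa2 and Stfa3 were below the floor in both groups and Stfa1 in the naive group, so no difference is read for them. Every adjusted p was 1 and no gene of the 22778 was called (0% called; 377 genes had an unadjusted p under 0.05, and DESeq2 called 0). S100a8, for example, was at 139 ± 166 CPM (SD, n = 5) in DMM vehicle mice and 56.7 ± 25.7 CPM (SD, n = 5) in naive vehicle mice, and without mouse 64 the log2 difference was 0.26 for S100a8, 0.28 for S100a9, 0.24 for Retnlg and -0.22 for Il1r2. With mice 63 and 64 alone as the DMM group, S100a8, S100a9 and Retnlg passed with log2 values of 2.35, 2.25 and 2.38 (adjusted p = 0.0485 each), whereas with mice 32, 33 and 34 alone the values turned to -0.29, -0.20 and -0.27. With AP20187, none of the 7 differed between DMM and naive mice (log2 -0.78 for Stfa1 to 0.66 for Il1r2, lowest adjusted p = 0.532), in a comparison with 0.702% of genes called, of which 37.5% were higher in DMM mice and 59.0% when libraries were scaled by their total alone.

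The effect of AP20187 was also not shown to differ between DMM and naive mice. The interaction called 0.114% of all genes and 0 of the 7. The difference in log2 fold change, DMM minus naive, was -1.55 for S100a8 (SE 0.92, adjusted p = 0.769), -1.40 for S100a9 (SE 0.88, adjusted p = 0.794), -0.91 for Retnlg (SE 0.85, adjusted p = 0.908) and 0.09 for Il1r2 (SE 0.70, adjusted p = 0.993). Without mouse 64 it was -0.51 for S100a8, -0.44 for S100a9, 0.18 for Retnlg and 0.88 for Il1r2, and none passed. For the stefins it was -2.77, -4.77 and -2.17 for Stfa1, Stfa2 and Stfa3, and the smallest adjusted p was that of Stfa2, 0.628 (unadjusted p = 0.0418 by edgeR). Without mouse 64 they were -0.61, -0.59 and 2.11. These stefin differences rest on groups at or near 0 counts, and their size depends on the prior count. Ordered by mean level over all mice, S100a8 and S100a9 ran from naive AP20187 through DMM AP20187 and DMM vehicle to naive vehicle, Il1r2 from DMM AP20187 through naive AP20187 and DMM vehicle to naive vehicle, and Retnlg from DMM vehicle through DMM AP20187 and naive AP20187 to naive vehicle. Without mouse 64 the DMM vehicle mean was 68.7 CPM for Retnlg, below both AP20187 groups, and 3.63 CPM for Il1r2, below the naive vehicle mean of 4.23 CPM. The stefins ran from naive AP20187 through DMM AP20187 to the vehicle groups, which are not ranked. Treated against vehicle mice of the same surgical state passed the test for S100a8, S100a9 and Il1r2. Steps in these orders between groups that differ in both surgery and treatment were not tested. Nothing is read from the call of the stefins.

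The ratio of these genes to S100a8 within each library compares them without any scaling between libraries. The FPKM ratio of S100a9 to S100a8 lay between 3.60 and 4.92 in all 19 libraries, although S100a8 itself ranged from 21.5 to 2108 CPM. In DMM mice the mean log2 ratio was 2.00 ± 0.0785 (SD, n = 5) with AP20187 and 2.14 ± 0.125 (SD, n = 5) with vehicle, a difference of -0.13 (two-sided exact permutation p = 0.111). In naive mice the difference was -0.22, and all 4 treated mice were below all 5 vehicle mice (exact permutation p = 0.0159, Benjamini-Hochberg adjusted 0.0238 over 6 ratio tests). The 2 calgranulins kept nearly the same proportion in every library.

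The Retnlg ratio did not keep its proportion. Per unit of S100a8 it was 1.05, 1.19, 1.27, 1.15 and 1.25 in the DMM vehicle mice and 1.48, 1.65, 1.07, 1.05 and 1.16 in the naive vehicle mice. With AP20187 it was 0.147, 0.111, 0.171, 0.125 and 0.136 in DMM mice and 0.0767, 0.0807, 0.0913 and 0.169 in naive mice. Every treated mouse lay below every vehicle mouse, and the vehicle ratio was much the same in mouse 64, rich in S100a8, and in mouse 32, the poorest. The log2 ratio differed by -3.11 in DMM mice (exact permutation p = 0.00794, the smallest that 5 against 5 mice can give, adjusted 0.0238) and by -3.67 in naive mice (exact permutation p = 0.0159, the smallest that 4 against 5 can give, adjusted 0.0238). Leaving out any 1 mouse kept the log2 difference between -3.20 and -3.04 in DMM mice and between -3.93 and -3.55 in naive mice, and without mouse 64 it was -3.09.

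The Il1r2 ratio behaved otherwise. Per unit of S100a8 it was 0.0504, 0.0341, 0.0455, 0.0392 and 0.0618 in the DMM AP20187 mice and 0.0311, 0.0390, 0.0132, 0.0176 and 0.0144 in the DMM vehicle mice. The log2 ratio was higher by 1.11 in treated DMM mice, with 4 of 5 above all vehicle mice (exact permutation p = 0.0159, adjusted 0.0238). Against vehicle mice 32, 33 and 34 alone the difference stayed positive and did not pass. In naive mice it was 0.0227, 0.0209, 0.0241 and 0.0741 with AP20187 and 0.0239, 0.0330, 0.0238, 0.0241 and 0.0361 with vehicle, a log2 difference of 0.13 (exact permutation p = 0.857, adjusted 0.857). Naive AP20187 mouse 5 held both the lowest S100a8 level and the highest Il1r2 ratio of its group, and the difference was -0.30 without it. The DMM and naive ratio differences were not tested against each other.

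**Figure D3:**
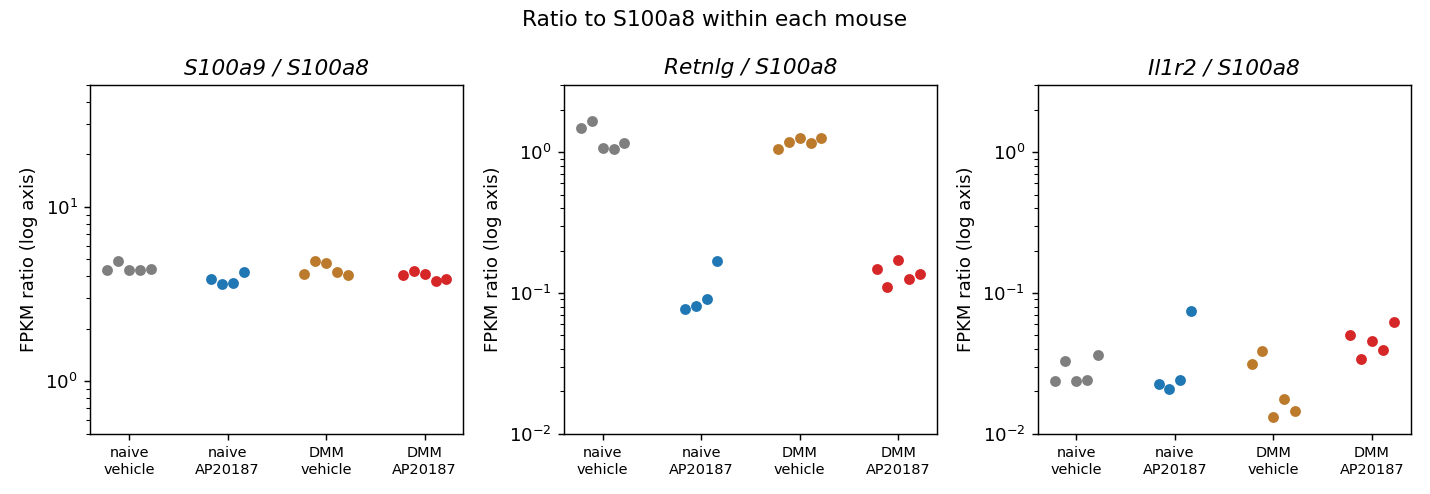
FPKM of S100a9, Retnlg and Il1r2 divided by that of S100a8 in the same mouse, on log axes, by group, with 1 point a mouse. The S100a9 ratio stays between 3.60 and 4.92, the Retnlg ratio falls from 1.05 to 1.65 in vehicle mice to 0.0767 to 0.171 in AP20187 mice, and the Il1r2 ratio is higher with AP20187 in 4 of 5 DMM mice than in any DMM vehicle mouse, while the naive groups overlap.

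The genes whose profiles over the 19 libraries were closest to each of the 7 are given as a description. Closeness was the root mean square difference of mean-centred log2 CPM, over 17083 genes with a mean of at least 1 CPM in some group. Closest to S100a8 were S100a9 (0.124), Lcn2 (0.321), which encodes the iron-sequestering lipocalin of the secondary granule, and Ngp (0.345), neutrophilic granule protein. Closest to S100a9 after S100a8 were Ngp (0.254) and Ltf (0.312), lactoferrin, another secondary granule protein. Closest to Retnlg were Ly6g (0.247), the surface marker of mouse neutrophils, and Cyp4f18 (0.312). Ly6g was at 13.4 ± 2.82 CPM (SD, n = 5) with AP20187 and 15.4 ± 17.1 CPM (SD, n = 5) with vehicle in DMM mice. It did not pass the test in either surgical state (log2 -0.20 and 0.57). Ly6g was named here for its closeness to Retnlg in these same libraries, so its likeness to Retnlg follows from the choice. Without mouse 64 the DMM vehicle mean of Ly6g was 8.11 ± 5.89 CPM (SD, n = 4) and the log2 fold change 0.73, which did not pass either.

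Closest to Il1r2 were Lrg1 (0.344), Gpr84 (0.423) and Lcn2 (0.436). Stfa1 and Stfa2 were 0.670 apart, with Ifitm1 the closest to Stfa1 (0.629) and Cstdc5 the second closest to Stfa2 (0.741). Stfa3 was closest to Ifitm6 (0.886), Wfdc17 (0.895) and Il1r2 (0.899). The distances of the stefins were larger, and their libraries at 0 counts carry a value set by the prior count.

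The other copies of the stefin cluster did not all share the near absence in vehicle mice. Stfa2l1, the near copy of Stfa2, had 0, 11, 53, 75 and 189 counts in the DMM vehicle mice and 34, 20, 22, 65 and 37 counts in the naive vehicle mice, in which Stfa2 had 0. With AP20187 it had 284, 501, 272, 193 and 381 counts in DMM mice and 606, 919, 389 and 103 counts in naive mice. It rose by log2 2.36 in DMM mice (adjusted p = 0.0404; 3.26 without mouse 64) and 3.99 in naive mice (adjusted p = 0.00830). Cstdc4 likewise had 4 to 301 counts in every vehicle mouse, and rose in naive mice (log2 3.89, adjusted p = 0.00836) but did not pass in DMM mice (1.54, adjusted p = 0.149), where it passed without mouse 64 (2.63, adjusted p = 0.0119). Cstdc5, the near copy of Stfa1, was as scarce with vehicle as Stfa1, at 0 to 12 counts, and rose by log2 5.89 in DMM mice (adjusted p = 0.000727; 6.66 without mouse 64) and 8.65 in naive mice (adjusted p = 0.000233). Like the 3 stefins it passed the filter through the AP20187 libraries, so these values are a description, and both the naive vehicle count of Cstdc5 and that of Csta2 were 6, from 1 mouse each. Csta2, a further copy with 0 to 22 counts in vehicle mice, gave 5.78 in naive mice (adjusted p = 0.00933) and did not pass in DMM mice (2.08, adjusted p = 0.157; 1.76, adjusted p = 0.192, without mouse 64).

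Summed over the 10 genes of the cluster, which does not depend on how counted reads were divided among the copies, the level was 22.6 ± 7.81 CPM (SD, n = 5) and 2.76 ± 3.13 CPM (SD, n = 5) in treated and vehicle DMM mice, and 37.5 ± 27.8 CPM (SD, n = 4) and 1.02 CPM in treated and vehicle naive mice. The sum rose by log2 3.03 in DMM mice (SE 0.73, adjusted p = 0.00789; 3.96 without mouse 64) and by 5.19 in naive mice (SE 0.83, adjusted p = 0.00109). Stfa1, Stfa2 and Stfa3 together made up 38.2% and 36.7% of the cluster's counts in treated DMM and naive mice, and 5.17% and 2.85% in vehicle DMM and naive mice. The DMM vehicle share was 4 of 383 counts, or 1.04%, without mouse 64, and the naive vehicle share rests on 10 counts in 2 mice. In each treated mouse their share lay between 27.1% and 44.0%, and in no vehicle mouse was it above 8.06%.

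**Figure D4:**
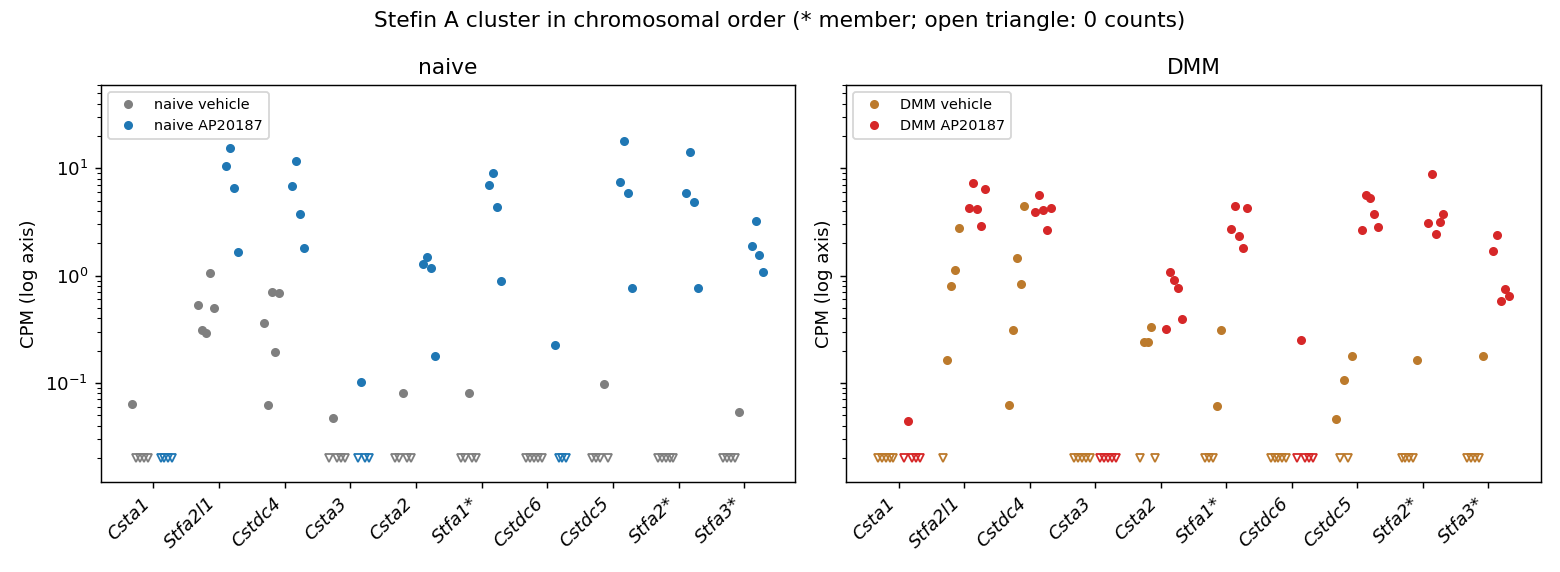
Level of the 10 stefin A cluster genes in every mouse, in chromosomal order, in CPM on a log axis, naive mice left and DMM mice right. Asterisks mark Stfa1, Stfa2 and Stfa3, and open triangles mark libraries with 0 counts. Over the vehicle mice together, Stfa2l1 and Cstdc4 carry most of the cluster's counts, and Stfa1, Stfa2, Stfa3 and Cstdc5 lie at or near 0.

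For the 6 genes called with AP20187, the 250 bases before the start of each are shown, as RefSeq places it (GRCm38.p6, a build earlier than that of the counts), 5′ to 3′ on the strand of the gene. Capitals mark matches to 5 motifs searched on both strands. The motif TTGCNNAA stood for C/EBP factors, which act through granulocyte development. The motif GAGGAA stood for PU.1, a myeloid factor. The TATA box was searched as TATAAA and, for a common variant of it, as TTTAAA. The motif GGGNNNTCC stood for NF-kB.
S100a8 (chr3:90668821-90669070, plus strand): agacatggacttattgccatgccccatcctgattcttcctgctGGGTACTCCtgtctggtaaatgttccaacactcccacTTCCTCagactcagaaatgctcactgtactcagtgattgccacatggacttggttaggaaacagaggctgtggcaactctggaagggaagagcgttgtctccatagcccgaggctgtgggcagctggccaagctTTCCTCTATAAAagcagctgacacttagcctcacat
S100a9 (chr3:90695722-90695971, minus strand): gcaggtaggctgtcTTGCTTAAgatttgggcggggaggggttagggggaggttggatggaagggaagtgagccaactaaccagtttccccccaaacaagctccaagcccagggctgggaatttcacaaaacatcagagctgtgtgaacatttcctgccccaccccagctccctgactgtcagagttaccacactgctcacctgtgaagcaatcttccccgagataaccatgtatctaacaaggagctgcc
Il1r2 (chr1:40085843-40086092, plus strand): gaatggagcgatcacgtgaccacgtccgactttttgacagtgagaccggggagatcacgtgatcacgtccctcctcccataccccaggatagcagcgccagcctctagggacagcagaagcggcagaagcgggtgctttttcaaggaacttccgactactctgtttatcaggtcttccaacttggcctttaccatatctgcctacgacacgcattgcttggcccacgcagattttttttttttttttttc
Stfa1 (chr16:36276898-36277147, plus strand): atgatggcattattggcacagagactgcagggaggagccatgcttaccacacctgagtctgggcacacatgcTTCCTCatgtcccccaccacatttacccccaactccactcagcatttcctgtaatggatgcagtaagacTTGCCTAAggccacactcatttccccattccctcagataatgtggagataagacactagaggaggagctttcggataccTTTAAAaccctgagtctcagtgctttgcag
Stfa2 (chr16:36408364-36408613, minus strand): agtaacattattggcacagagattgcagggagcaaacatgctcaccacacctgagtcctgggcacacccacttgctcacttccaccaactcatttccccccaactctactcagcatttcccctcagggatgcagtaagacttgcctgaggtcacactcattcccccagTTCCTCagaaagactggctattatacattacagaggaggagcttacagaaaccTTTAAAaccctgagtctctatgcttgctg
Stfa3 (chr16:36455393-36455642, minus strand): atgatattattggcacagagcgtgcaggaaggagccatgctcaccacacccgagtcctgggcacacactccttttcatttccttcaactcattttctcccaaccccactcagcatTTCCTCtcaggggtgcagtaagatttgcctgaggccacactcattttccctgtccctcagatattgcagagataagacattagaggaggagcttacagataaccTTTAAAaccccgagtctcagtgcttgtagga
The 3 stefin promoters were 82.2% to 84.6% identical to each other. Each held TTTAAA at about the place of a TATA box, beginning 29 to 31 bases before the start, and S100a8 held TATAAA there, beginning 30 bases before it and next to a PU.1 match. S100a9 and Il1r2 had no PU.1 match, no match to TATAAA and none to TTTAAA in this window. TTTAAA occurred in 3276 and TATAAA in 3504 of 27025 promoter windows of the same length. PU.1 matches were found in 4 of the 7 genes (S100a8 and the 3 stefins), against 23.1% of all windows, and C/EBP matches in 3 of 7 (S100a9, Retnlg and Stfa1), against 9.55%. The NF-kB letters were in 1 of 7, S100a8, against 4044 of the 27025 windows. A match is a description of letters, and none of these factors was measured here.

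The genes around the 7 by role were counted from lists, to be read beside the shares of all tested genes. These shares were 11.3% higher and 12.4% lower in DMM mice, and 8.61% higher and 2.57% lower in naive mice. The lists were also chosen with earlier results of these data known, so nothing is read from an excess over the shares. Among receptors and binding partners of S100A8 and S100A9, 2 of 5 rose and none fell in both surgical states: Tlr4, the Toll-like receptor (log2 2.08, adjusted p = 0.000158 in DMM; 1.42, adjusted p = 0.00523 in naive), and Ager, the receptor for advanced glycation end products (1.96 and 1.47). Cd36, Bsg and Emb did not pass. Of 9 tested S100 genes other than S100a8 and S100a9, S100a11 rose and S100b, a glial and neuronal gene, fell in DMM mice (log2 1.29 and -0.79), each 1 of 9 and near the share of all genes. S100a11 and S100a1 rose in naive mice (2.02 and 1.79), and S100a1 also passed in DMM mice without mouse 64 (1.03). S100a6 and S100a10, which many cell types express, did not pass in either state (-0.03 and 0.08 in DMM mice, 0.81 and 0.53 in naive mice).

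In the interleukin-1 system beside Il1r2, 3 of 8 genes rose in DMM mice and 5 of 8 in naive mice, and none fell. Il1r1, the signalling receptor, rose by log2 1.74 in both (adjusted p = 6.06e-05 and 0.000120), and its partner Il1rap by 1.19 and 0.82. Il18r1 rose by 2.66 and 2.21. Il1rn, the receptor antagonist, and Il1a passed in naive mice (2.12 and 3.96) and not in DMM mice (1.15 and 1.25), where Il1rn passed without mouse 64 (1.87). The ligand Il1b gave -1.58 in DMM mice (adjusted p = 0.0889; -0.47 without mouse 64) and 1.05 in naive mice (adjusted p = 0.314), at means of 1.64 to 4.90 CPM.

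Of the 7 cysteine cathepsins, the enzymes that stefins inhibit, Ctsl fell in DMM mice (log2 -0.82, adjusted p = 0.0134) and Ctsz rose in naive mice (0.98, adjusted p = 0.0117), and no other passed, counts near the shares of all genes. Without mouse 64, Ctsc, Ctsh and Ctsz rose (1.37, 1.19 and 0.84) and Ctsl and Ctsb fell (-0.91 and -0.45) in DMM mice. Of 4 other cystatins, Cst7, cystatin F of leukocytes, rose in both states (3.17 and 3.91), while Cstb, stefin B, did not pass (0.16 and 0.99). Of the resistin family, Retn was near the floor in all groups, and Retnla, a marker of alternatively activated macrophages, fell in DMM mice, from 1.19 ± 1.16 CPM (SD, n = 5) with vehicle to 0 counts in all 5 treated mice (edgeR adjusted p = 0.000684). Without mouse 64 the vehicle mean was 0.677 ± 0.240 CPM (SD, n = 4) and Retnla still passed (edgeR adjusted p = 0.000475). In naive mice Retnla did not pass (adjusted p = 0.1).

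For the lists of other neutrophil compartments, the counts of genes that rose in DMM mice without mouse 64 were 5 of 5 primary granule genes, 9 of 9 secondary and tertiary granule genes and 8 of 11 surface receptor genes. With all mice, the 5 primary granule genes rose in both states, by a median log2 of 3.65 in DMM and 3.57 in naive mice, among them Mpo, myeloperoxidase (3.50 and 3.57), and Elane, neutrophil elastase (3.65 and 3.43). These are transcribed mainly in promyelocytes of the marrow. Of 9 secondary and tertiary granule genes, 7 rose in DMM and 8 in naive mice, among them Ltf (3.30 and 3.76), Ngp (2.99 and 3.73) and Lcn2 (3.59 and 4.43), while Mmp8 did not pass in either (1.43 and 1.57; 2.17, passing, in DMM mice without mouse 64). Of 11 surface receptor genes, 5 rose in DMM and 6 in naive mice, including Cxcr2 (2.79 and 2.96) and Clec4e (2.98 and 3.24), and Ly6g, Csf3r, Clec4d and Cd24a were among those that did not pass in either. Without mouse 64, Csf3r passed in DMM mice (2.11). The summed level of the 11 overlapped between treated and vehicle mice, at 1964 to 2380 and 1483 to 2034 CPM in DMM and 1463 to 2226 and 1418 to 1989 CPM in naive mice.

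Markers of other cells moved as well, and their part in the results for the 7 genes was not tested. With AP20187, 6 of 8 early B lineage genes fell in DMM mice and 5 of 8 in naive mice, with Rag2 at 0 counts in all 9 treated mice. Erythroid genes fell in DMM mice (5 of 8, and 1 of 8 without mouse 64) and did not pass in naive mice. In the 5 DMM vehicle mice, S100a8 and the summed erythroid level had the same order: 21.5, 27.6, 90.1, 132 and 425 CPM for S100a8 went with 1598, 2635, 6907, 11618 and 26737 CPM for the erythroid genes. In the treated DMM mice the erythroid sum was 1303 to 5241 CPM while S100a8 was 894 to 1533 CPM. In the naive vehicle mice 1 to 5 the erythroid sum was 3704, 3861, 6335, 13344 and 3345 CPM. S100a8 was likewise highest in mouse 4 and next in mouse 3. Mice 1, 2 and 5 had another order, with mouse 2 lowest in S100a8 and mouse 5 lowest in the erythroid sum. Neuronal genes fell in DMM mice (5 of 7, and 7 of 7 without mouse 64) and none passed in naive mice, and their sum was 889 to 4077 CPM in treated and 2835 to 7896 CPM in vehicle DMM mice. Of 5 keratinocyte genes, 2 rose in DMM mice, Krt5 and Krt14, at means of 1.44 and 1.54 CPM and each at 0 counts in 2 of the 5 treated mice. The keratinocyte sum was 1.49 to 9.05 CPM in treated and 2.15 to 4.97 CPM in vehicle DMM mice, and 2.30 to 3.94 CPM in treated and 2.07 to 4.08 CPM in vehicle naive mice. Megakaryocyte genes rose in DMM mice in 1 of 5 (4 of 5 without mouse 64) and in naive mice in 0 of 5, and glial genes fell in 1 of 5 and 0 of 5.

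**Figure D5:**
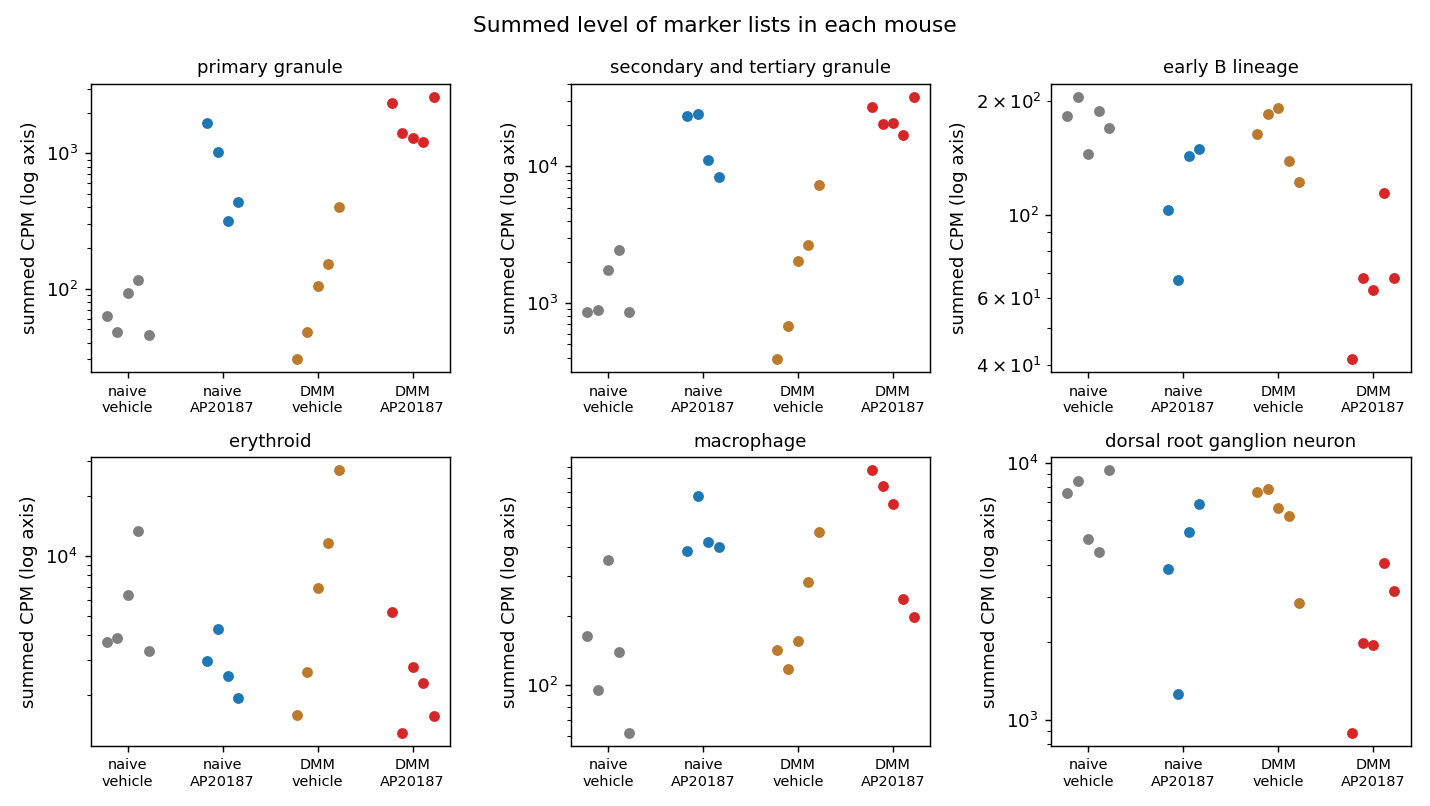
Summed level of 6 marker lists in every mouse, in CPM on log axes, by group, with 1 point a mouse. Both granule lists are higher in every AP20187 mouse than in every vehicle mouse of the same surgical state, and the erythroid sum is highest in DMM vehicle mouse 64, at 26737 CPM.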

How the data were processed

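Poly(A) RNA was made into stranded TruSeq libraries, per the labels' protocols. A table deposited by the authors held raw counts and FPKM side by side for 36682 genes, and the counts of the 7 genes were equal in a further deposited count matrix. Cutadapt, HISAT2, StringTie and GRCm39 are named in the submitters' processing notes without their role, order or version, and the annotation and the counting of reads that match several genes are not given in the sources used here. Libraries held 60984830 to 74691396 counts. Groups came from the labels.

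Counts of all 4 groups (19 libraries) were fitted together with edgeR 4.0.16 in R 4.3.3 (TMM scaling, filterByExpr with a minimum count of 10, quasi-likelihood F test, 15 residual degrees of freedom), and p-values were adjusted by Benjamini-Hochberg over 22778 tested genes, with a threshold of 0.05. CPM are counts scaled to a common library size with TMM factors, and log2 CPM used a prior count of 2. The floor for a count of 0 was 3 counts per library. FPKM ratios were compared by exact two-sided permutation over mice. Genes named were the 7 members, the fixed lists, the stefin A cluster and the 3 genes nearest to each member. A gene that this rule names is not reported here. Members and lists were chosen with earlier results of these data known. The labels do not say that the libraries of a group came from separate experiments, so p-values measure the spread between these samples. Sequences were read from GENCODE M21 transcripts and RefSeq promoters (both GRCm38) with Biopython 1.88. Alternatives used DESeq2 1.42.0 and limma 3.58.1 (voom with sample weights, and log2 of the deposited FPKM plus 1 or 0.1), other scalings and filters, subsets of mice and a replicate block. The fit was also run on simulated counts as a check of the code, and no result given here rests on it.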

Additional observations from a re-analysis of the deposited data

Results flagged for a closer look

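In 28 sets of values (7 genes in 4 groups), 9 single values stood far from the rest of their group by Dixon's test at the 95% level. Chance gives about 1 in 20 only for independent sets. Several of these genes moved together, so the 9 are not set against that rate. DMM vehicle mouse 64 accounted for 6 of them, with 425 CPM of S100a8, 1299 CPM of S100a9, 454 CPM of Retnlg, 0.309 CPM of Stfa1, 0.162 CPM of Stfa2 and 0.177 CPM of Stfa3. This mouse also held the highest erythroid sum of the study, at 26737 CPM, and the part of this in its values was not tested. The other 3 were Stfa1 in naive vehicle mouse 3, at 0.0800 CPM, Stfa3 in naive vehicle mouse 5, at 0.0535 CPM, and Stfa2 in DMM AP20187 mouse 59, at 8.88 CPM. A group with all mice but 1 at 0 counts meets this criterion whatever the size of the remaining value, which holds for Stfa1 in naive vehicle mouse 3, for Stfa2 in mouse 64, for Stfa3 in mouse 64 and for Stfa3 in naive vehicle mouse 5.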

How the results depend on the processing

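In naive mice the calls of S100a8, S100a9 and Il1r2 held in all 19 fits that left out 1 mouse and in the other settings run. The log2 values were 4.15 to 4.91 for S100a8 and 3.74 to 4.66 for Il1r2. Nothing is read from the calls of the stefins in these settings. In DMM mice S100a8, S100a9 and Il1r2 were called in every fit that left out 1 mouse. Against vehicle mice 63 and 64 alone only Il1r2 of these was called. With voom and against mice 32, 33 and 34 alone, Retnlg was called as well. The log2 value of S100a8 ran from 2.01 to 4.61 over the settings. The DMM value of Retnlg turned positive with voom (1.17), with FPKM plus 1 (0.66) or plus 0.1 (0.67) and against vehicle mice 32, 33 and 34 alone (1.46), and ran from -0.42 to 0.96 when 1 mouse was left out, the highest being without mouse 64.

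Counts of called genes moved more than the members. In DMM mice 10676 genes were called with voom, 8450 against mice 32, 33 and 34 alone, 1156 against mice 63 and 64 alone, and 3212 to 7677 with 1 mouse left out, lowest without AP20187 mouse 58 and next without vehicle mice 33 (3407) and 32 (3419). In naive mice it was 4356 with DESeq2, 4542 with voom, 4147 and 4225 with FPKM plus 1 and plus 0.1, and 994 to 3452 with 1 mouse left out (994 without AP20187 mouse 3, 1191 without AP20187 mouse 1, 1368, 1292 and 1566 without vehicle mice 1, 2 and 5). A replicate block over naive mice 1, 3, 4 and 5 gave 2352 genes, and the same 8 mice without the block gave 1388 genes. S100a8, S100a9 and Il1r2 were called in both. Same-numbered mice correlated at 0.00781, 0.254, -0.0532 and 0.223 in their deviations, so the numbers were not taken as pairs.

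Between DMM and naive vehicle mice, voom called 1 gene and the fit with mice 63 and 64 alone called 541, with 3 members. Voom gave -0.0797 for Il1r2 and -0.39 for Stfa3. With mice 32, 33 and 34 alone the log2 values were -0.29 for S100a8, -0.20 for S100a9, -0.27 for Retnlg, -0.65 for Il1r2, -3.31 for Stfa1 and -2.80 for Stfa3. With 1 mouse left out, Il1r2 ran from -0.22 to 0.78, Stfa1 from -0.17 to 5.30 and Stfa3 from -2.80 to 4.28, each lowest without mouse 64. The stefin values here compare groups at or near the floor, so their size depends on the prior count and is no measured difference.

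Between DMM and naive AP20187 mice, called genes numbered 73 without a filter, 1109 with DESeq2, 2456 with voom, 1220 and 1011 with FPKM plus 1 and plus 0.1, 282 with DMM vehicle mice 32, 33 and 34 alone in the fit, and 43 to 269 with 1 mouse left out. Voom gave 0.14 for S100a8, 0.24 for S100a9 and 0.14 for Stfa2. Both FPKM settings gave 0.23 for S100a8 and 0.30 for S100a9, and FPKM plus 0.1 gave 0.0203 for Stfa2. With 1 mouse left out, S100a8 ran from -0.60 to 0.0388, S100a9 from -0.49 to 0.16 and Stfa2 from -1.05 to 0.17.

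The interaction called 13 genes without a filter, 224 with DESeq2, 53 with voom, 56 with FPKM plus 1, 90 with mice 63 and 64 alone, and 12 to 57 with 1 mouse left out. Retnlg gave 0.51 with voom, 0.17 and 0.18 with FPKM plus 1 and plus 0.1. With mice 32, 33 and 34 alone the values were 0.0313 for S100a8, 0.0411 for S100a9, 0.69 for Retnlg, 2.54 for Stfa1 and 2.11 for Stfa3, and with 63 and 64 alone -0.85 for Il1r2. With 1 mouse left out, Retnlg ran from -1.20 to 0.18, Il1r2 from -0.21 to 0.88 and Stfa3 from -4.96 to 2.11. The log2 ratio to S100a8 in DMM mice was -3.14 for Retnlg and 1.504 for Il1r2 against mice 63 and 64 alone (exact permutation p = 0.0952 each). That p is the smallest that so few mice can give, so neither could pass. Against mice 32, 33 and 34 alone it was 0.85 for Il1r2 (exact permutation p = 0.0714). The Il1r2 ratio in naive mice ran from -0.30 to 0.31 with 1 mouse left out. The cause of these shifts was not tested. These settings were partly chosen after seeing the data: the subsets and left-out mice for the ratios, the fit without a block on 8 mice, and the lists and stefin cluster without mouse 64. At this depth a stefin at 0 counts limits its level, not its absence.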
